A study of Mus musculus with 23 samples.

Results

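Luminal progenitors of the mouse mammary gland were compared between pregnancy and the virgin state. The pregnant side held the luminal progenitor arrays of pregnancy day 10 and day 16, with 1 array each, pooled as 2 pregnant samples. The virgin side held the luminal progenitor arrays of 3-week and 9-week virgins, with 2 arrays at each age and 4 in all. These 6 arrays were chosen by their labels from 23 Affymetrix arrays of mammary cells purified from female C57BL/6 mice, an inbred strain, at several reproductive stages. The labels name no transgene or drug treatment for any group. They give no age for the pregnant mice, no surface markers for the purification, and no statement on whether arrays came from separate or pooled animals. All p-values below thus reflect the variation among these arrays alone, and that variation may be technical.

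The mammary duct has an outer basal layer of contractile cells and an inner luminal layer. Luminal cells that carry receptors for oestrogen and progesterone sense the ovarian hormones, while luminal progenitors are mostly receptor-poor and give rise to alveolar cells. During pregnancy, progesterone and prolactin drive alveoli to form. Prolactin acts through its receptor, the kinase JAK2 and the factor STAT5, and together with the factor ELF5 switches on the genes of milk.

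All values below are deposited log2 expression values, for 1 probe set per gene, and a difference is the pregnant mean minus the virgin mean on that scale. A limma fit on all 23 arrays tested 15378 genes, and a gene was called where its p, adjusted for all of them by Benjamini-Hochberg, was under 0.05. The spread came from the 7 groups with 2 arrays, because both pregnant luminal progenitor groups had 1. The median difference over all genes was 0.23. Array medians ran from 4.67 to 5.22, and values well below them can hold background, so a difference from such a level is no exact fold.

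The label was checked against markers. The mean of 13 luminal progenitor markers was 8.75 to 9.76 on the 4 virgin luminal progenitor arrays, against 7.74 to 8.75 on 3 virgin mature luminal arrays and 8.05 to 9.02 on 4 virgin stem cell arrays. The virgin luminal progenitor arrays also carried the hormone-sensing genes, whose mean of 8.38 to 9.41 lay near the 9.16 to 10.15 of virgin mature luminal cells and overlapped the 7.38 to 8.79 of virgin stem cells. In pregnancy the progenitor marker mean was 10.03 and 10.28, within the 9.41 to 10.35 of 3 mature luminal arrays of the same days. Markers thus separated the preparation labelled luminal progenitors from the other cell types only in part. Gapdh signal from the 3′ end exceeded that from the 5′ end, a sign of RNA breakdown. The excess was 2.22 and 2.34 log2 units on the day-10 and day-16 arrays. On the 3-week and 9-week virgin arrays it was 0.94 and 0.87 for replicate 1 and 2.03 and 1.97 for replicate 2. The virgin values thus split by replicate number, and those of replicate 2 lay nearer to the pregnant ones.

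In pregnant luminal progenitors 90 genes were higher (0.585% of those tested) and 75 were lower (0.488%) than in virgin ones. Among the furthest on the higher side were the amino acid oxidase Lao1, the milk fat genes Olah, Fabp3 and Thrsp, the forkhead factor Foxs1 and the whey protein Wap. Among the furthest on the lower side were the secreted glycoprotein Dmbt1, the fibrinogen chain Fgb and the enzyme Ido1, and 4 hormone-sensing genes were also lower. Unadjusted, 2662 genes had a p under 0.05. Together the 165 genes made up 1.07% of those tested. The 2 pregnant values lay above all 4 virgin values for 24.8% of all genes and below them for 11.6%, so a lack of overlap was common on the higher side. All called genes were without overlap. A total of 2525 genes (16.4%) were higher and 948 (6.16%) lower by at least 1 log2 unit without overlap.

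That count depended on single arrays. Without the day-10 array 5 genes were called and without the day-16 array 79. It was 35 without 3-week replicate 1, 108 without 3-week replicate 2, 42 without 9-week replicate 1 and 237 without 9-week replicate 2. Of 53 called genes named below, 5 were still called without day 10, 33 without day 16, 25 and 38 without 3-week replicates 1 and 2, and 27 and 49 without 9-week replicates 1 and 2. The 5 genes left without day 10 were Wfdc12, Alox12e and Lgals1 on the higher side and Fgb and Nrxn3 on the lower side. The virgin arrays carry replicate numbers that paired arrays across the series, but the pregnant luminal progenitor arrays carry none. With the replicate number in the model 2075 genes were called when unnumbered arrays were placed midway between the numbers, and 733 when they were treated as number 2.

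Milk proteins came first. The caseins form the micelles that carry calcium and phosphate, whey acidic protein is the main whey protein of mouse milk, and α-lactalbumin is the regulatory subunit of lactose synthase. Of 9 milk protein genes kept, Wap and Csn1s1 were called higher, and the median difference was 5.23 (0.23 over all genes). On the higher side 7 did not overlap (24.8% of all genes did not). The casein genes lie together on chromosome 5, and the start regions of 3 of them are shown because each holds the palindrome TTCNNNGAA, the letters STAT factors are known to bind. Each line gives 250 bases before to 50 after the RefSeq gene start (GRCm38.p6), read 5′ to 3′ on the gene's strand, with the palindrome in capitals.

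Csn1s1, chr5:87665958-87666257, plus strand: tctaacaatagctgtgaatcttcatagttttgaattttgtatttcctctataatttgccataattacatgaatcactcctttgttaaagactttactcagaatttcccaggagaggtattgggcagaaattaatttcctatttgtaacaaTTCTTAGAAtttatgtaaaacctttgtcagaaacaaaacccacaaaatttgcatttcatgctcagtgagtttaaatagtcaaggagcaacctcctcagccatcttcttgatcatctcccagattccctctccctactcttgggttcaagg
Csn2, chr5:87699376-87699675, minus strand: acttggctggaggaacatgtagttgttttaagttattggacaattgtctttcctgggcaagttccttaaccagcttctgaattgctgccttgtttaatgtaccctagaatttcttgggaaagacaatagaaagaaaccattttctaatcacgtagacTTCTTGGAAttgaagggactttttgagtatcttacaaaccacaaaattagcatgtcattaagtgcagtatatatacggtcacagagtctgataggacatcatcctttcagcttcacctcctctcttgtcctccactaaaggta
Csn1s2a, chr5:87774200-87774499, plus strand: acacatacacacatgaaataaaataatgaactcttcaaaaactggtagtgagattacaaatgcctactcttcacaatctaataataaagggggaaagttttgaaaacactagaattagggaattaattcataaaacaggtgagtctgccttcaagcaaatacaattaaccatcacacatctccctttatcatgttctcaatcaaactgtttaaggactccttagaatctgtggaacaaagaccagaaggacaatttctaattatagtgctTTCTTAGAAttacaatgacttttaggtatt

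The first base of the palindrome lay 100 bases before the start of Csn1s1 and 93 before that of Csn2, and in Csn1s2a it lay after the start. The search used the letters TTCNNNGAA, which read alike on both strands. Of all 32851 RefSeq promoters of this length 8.3% held a match. Among the called genes with a promoter entry, 6 of 73 higher genes (8.22%) and 7 of 58 lower genes (12.1%) held one, against 8.32% of the 12290 tested genes with an entry. The windows of Wap, Lalba, Olah, Fabp3 and Thrsp held none. That of Glycam1, whose values overlapped between the groups, held one that began 145 bases before the start.

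Wap had 12.74 on the day-10 and 6.94 on the day-16 array, against 2.45 and 2.76 on the 3-week and 2.98 and 4.35 on the 9-week virgin arrays. The pregnant arrays were both above the virgin ones but day 16 was far below day 10. The difference was 6.71 ± 0.73 (standard error, adjusted p = 0.00181), and all 4 virgin values lay below the median of their array.

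Csn1s1, which codes for αs1-casein, had 14.11 at day 10 and 13.28 at day 16, against 6.82 and 5.06 at 3 weeks and 6.70 and 10.33 at 9 weeks. Both pregnant values were near the top of the deposited scale, which ended at 14.28. The difference was 6.47 ± 1.04 (adjusted p = 0.0176).

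Csn2, which codes for β-casein, had 13.85 and 13.46 on the pregnant arrays, against 3.01, 4.25, 4.56 and 12.09 on the virgin arrays. The groups did not overlap, but 9-week replicate 2 lay far above the other virgin arrays. The difference of 7.68 ± 2.23 did not pass (adjusted p = 0.113). Csn1s2a had 14.13 and 13.49, against 3.77, 6.10, 4.91 and 10.95 (difference 7.38, adjusted p = 0.0609).

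Lalba behaved in the same manner, with 9.95 and 8.33 on the pregnant arrays against 3.31, 3.48, 3.03 and 7.82 on the virgin ones (difference 4.73, adjusted p = 0.0694). Here too 9-week replicate 2 stood apart from the other virgin arrays. Csn1s2b had a difference of 5.23 (adjusted p = 0.0892) and the mucin Muc15 one of 2.73 (adjusted p = 0.19). Without 9-week replicate 2 the genes Csn2, Csn1s2a, Lalba and Csn1s2b had differences of 9.56, 8.89, 5.93 and 6.59. That array held the highest virgin value of each, so leaving it out had to widen the gap. With the replicate number in the model these 4 and Muc15 passed in both codings, with adjusted p from 0.000681 to 0.0378.

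Csn3, which codes for κ-casein, the casein that coats the micelle, was high on every array. It had 13.73 and 13.61 on the pregnant arrays against 13.14 to 13.92 on the virgin arrays, and the values overlapped (difference 0.18, adjusted p = 0.742). These values are close to the end of the scale, which leaves little room above them. A dimmer Csn3 probe set averaged 7.49 on the pregnant and 3.64 on the virgin arrays (difference 3.85), and the mean of both probe sets gave 2.02 (adjusted p = 0.0897), so no statement on Csn3 is secure. Glycam1, a mucin-like milk protein, had 13.99 and 12.73 against 13.99, 13.58, 13.89 and 10.69 (difference 0.32, adjusted p = 0.848). All 9 milk protein genes were higher on the day-10 than on the day-16 array.

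**Figure D1:**
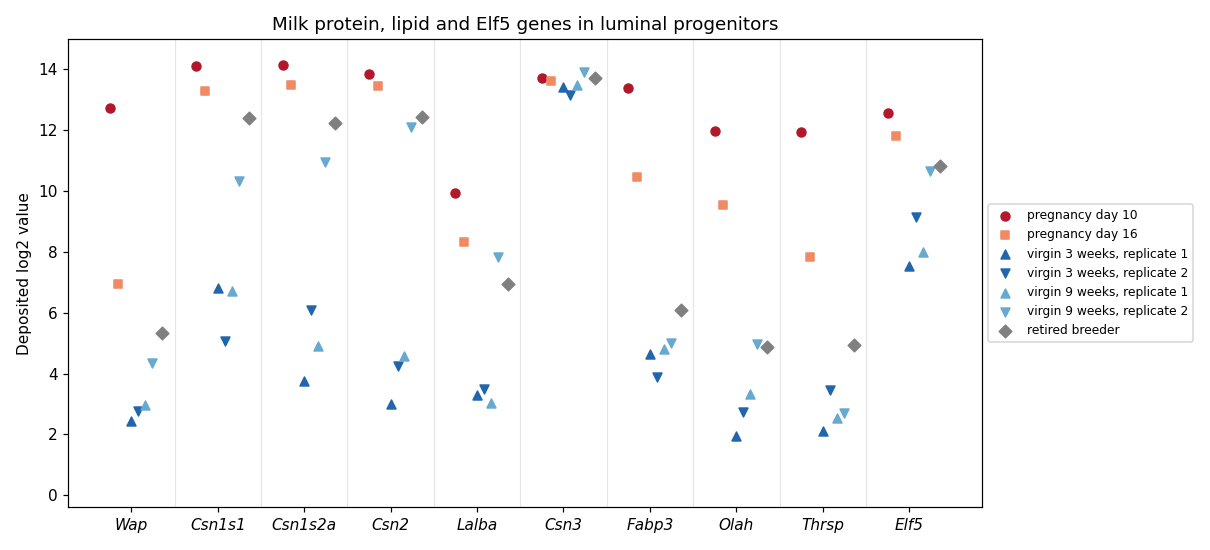
Deposited log2 values (y axis) of 10 genes (x axis) on each luminal progenitor array, with 1 point per array; the 2 pregnant arrays are left, the 4 virgin arrays in the middle and the retired breeder right. The pregnant points lie above all virgin points except for Csn3, and 9-week replicate 2 is the highest virgin array for the caseins and Lalba.

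Milk fat genes were next. Alveolar cells make fatty acids, cut them at medium length and pack the fat into globules wrapped in membrane. In the list of fatty acid and triglyceride synthesis 2 of 21 genes were called higher, Olah and Thrsp, with a median difference of 1.08 and 10 without overlap on the higher side. In the list of lipid uptake and the milk fat globule 2 of 12 were called higher, Fabp3 and Fabp4, with a median of 2.44 and 7 without overlap. Over all genes 24.8% were without overlap on the higher side.

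Olah, the thioesterase that releases medium-chain fatty acids from the synthase, had 11.98 and 9.55 on the pregnant arrays, against 1.94, 2.74, 3.32 and 4.98 on the virgin arrays. Its difference was 7.52 ± 1.15 (adjusted p = 0.0137). Fabp3, a fatty acid carrier abundant in the lactating gland, had 13.39 and 10.46, against 4.63, 3.89, 4.81 and 4.99. Its virgin values spanned little over 1 log2 unit, and its difference was 7.34 ± 0.80 (adjusted p = 0.00181). Thrsp, a regulator of lipid synthesis, had 11.95 and 7.84 against 2.12 to 3.47 (difference 7.19 ± 1.41, adjusted p = 0.0363).

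The enzymes that feed these steps had smaller differences that did not pass. Acaca, the acetyl-CoA carboxylase, had a difference of 2.17 (adjusted p = 0.0806), the fatty acid synthase Fasn one of 1.79 (0.106, and 0.71 without the day-10 array) and the phosphatidate phosphatase Lpin1 one of 2.08 (0.0619). The lipase Lpl had 4.39 (0.0851), the fatty acid transporter Cd36 4.12 (0.11), the fat globule enzyme Xdh 2.80 (0.0878) and the milk exporter Abcg2 2.46 (0.0914). The values of all but Xdh did not overlap. With the replicate number in the model and unnumbered arrays midway these 7 genes passed (adjusted p 0.000506 to 0.0281), while with those arrays as number 2 Fasn (0.0654) and Lpl (0.0533) did not. In the synthesis list 20 of 21 genes were higher at day 10 than at day 16, and 46.4% of all genes were.

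Fabp4 is a fatty acid carrier of fat cells and small vessels and stood in the adipocyte list as well. It had 12.41 and 12.71 against 10.16, 11.03, 9.57 and 9.84 (difference 2.41 ± 0.47, adjusted p = 0.0354). It was the only one of 7 adipocyte markers called, their median difference was 0.81, and Fabp4 did not pass with the mean of its probe sets (adjusted p = 0.0965).

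For the other parts of milk secretion, 1 of 15 genes of lactose, glucose and ion transport was called higher and 1 lower (median 0.04). Slc30a2, the transporter that loads zinc into milk, had 6.91 and 5.35 on the pregnant arrays against 1.16 to 2.54 on the virgin arrays (difference 4.40 ± 0.68, adjusted p = 0.0145). With values below the array median raised to it, the difference was 1.24 and did not pass (adjusted p = 0.0602). Slc12a2, the sodium, potassium and chloride cotransporter NKCC1, had 11.44 and 12.04 against 13.50, 13.43, 13.49 and 13.08. It was lower by a narrow but well separated margin (difference -1.64 ± 0.23, adjusted p = 0.00897).

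Genes of milk defence numbered 18, and 0 were called by limma, with 9 at an unadjusted p under 0.05 and a median difference of 1.82. They went both ways, with 12 positive and 6 negative differences that ran from -5.05 to 5.435. Without overlap were 7 on the higher side (24.8% of all genes) and 3 on the lower side (11.6%). The median was -0.33 in mature luminal cells and 0.54 in stem cells. Pigr, the receptor that carries antibodies into milk, had 10.98 and 8.06 against 4.45, 5.78, 3.50 and 6.77 (difference 4.39, adjusted p = 0.0593). The milk peroxidase Lpo had 9.51 and 5.79 against 0.85 to 3.96 (difference 5.43, adjusted p = 0.0658). Both passed with the replicate number in the model, at 0.00548 and 0.000681 with unnumbered arrays midway and at 0.0269 and 0.00659 with them as number 2.

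Other genes far up in pregnancy included Lao1, an L-amino acid oxidase found in mouse milk, with 12.11 and 7.76 against 0.92, 1.14, 1.34 and 4.33. Its difference of 8.0 ± 1.67 was the largest among the called higher genes (adjusted p = 0.0465). Foxs1, a forkhead factor, had a difference of 6.80 and Bcl2l15, a member of the BCL2 family, one of 6.36. The connexin Gjb6 (6.09), the acyl-CoA binding protein Acbd7 (6.19) and the proton pump subunit Atp6v1c2 (5.88) followed, with the less described Gm12863 (5.70) and 1700012B07Rik (5.33). Gm12863 had 9.97 and 4.18 against 0 to 2.0, and 1700012B07Rik had 9.04 and 5.35 against 1.31 to 2.68. Without the day-10 array they had 2.80 and 3.48 (adjusted p = 0.656 and 0.398), and with values under the array median raised to it 2.61 and 2.31 (adjusted p = 0.00183 and 0.0152). Gjb6 (0.0666) was lost without 9-week replicate 2. Adjusted p ran from 0.00822 for Bcl2l15 to 0.0477 for Gjb6.

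Wfdc12 and Alox12e had less spread between the pregnant arrays than Wap or Lao1. Wfdc12, a secreted protein with a whey acidic protein core, had 10.94 and 12.12 on the pregnant arrays, against 7.10, 6.46, 4.60 and 5.36 on the virgin arrays (difference 5.65 ± 0.66, adjusted p = 0.00299). The lipoxygenase Alox12e had 8.69 and 8.33, against 2.64, 3.90, 2.92 and 3.48 (difference 5.28 ± 0.55, adjusted p = 0.00181). Both were still called without the day-10 array, at adjusted p of 0.0404 and 0.0435.

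Across the 90 higher genes the differences ran from 1.74 to 8.0 with a median of 3.79. In 46 of them all 4 virgin values lay below the array median. The day-10 value was further from the virgin mean in 63 and the day-16 value in 27.

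On the regulator side, 0 of 12 genes of prolactin, JAK2 and STAT5 signalling were called by limma, 4 had an unadjusted p under 0.05, and the median difference was 0.21. Elf5, the alveolar transcription factor, had 12.56 and 11.80 against 7.52, 9.13, 8.0 and 10.65 (difference 3.35, adjusted p = 0.0742). Its groups did not overlap, and it passed with the replicate number in the model (0.00817 and 0.0366). Without 9-week replicate 2, the highest virgin array for Elf5, the difference was 4.02. Jak2 had 9.71 and 10.64 against 10.73 to 11.22 (difference -0.84, adjusted p = 0.148). Its adjusted p was 0.0398 and 0.0718 in the 2 codings of the replicate number. Stat5a overlapped, with 11.63 and 11.31 against 11.06 to 12.49 (difference -0.45, adjusted p = 0.636).

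Among 13 luminal progenitor markers 1 was called higher, Rspo1, and the median difference was 0.71. Rspo1, a secreted enhancer of Wnt signalling, had 10.40 and 10.02 against 5.37, 5.46, 5.59 and 6.73 (difference 4.42 ± 0.67, adjusted p = 0.0135). The vitamin D hydroxylase Cyp24a1 had 9.58 and 9.59 against 3.69 to 7.55 (difference 4.0, adjusted p = 0.104), and the factor Sox10 had 11.29 and 10.96 against 8.08 to 9.86 (difference 2.51, adjusted p = 0.0833). Both passed with the replicate number in the model, Cyp24a1 at 0.00462 and 0.0339 and Sox10 at 0.00681 and 0.0362. The receptor Kit overlapped, with 8.95 and 9.51 against 7.91 to 10.04 (difference 0.71, adjusted p = 0.558). Aldh1a3, a retinaldehyde dehydrogenase, had 9.75 and 11.02 against 11.32 to 12.32, with no overlap on the lower side (difference -1.58, adjusted p = 0.226). With unnumbered arrays midway its adjusted p was 0.0135, and as number 2 it was 0.122.

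Growth factor pathways had few calls. In the Wnt pathway 1 of 27 genes was higher, Rspo1, and 1 lower, Wnt5a, a ligand of the non-canonical branch. Wnt5a had 6.91 and 8.53 against 10.51, 11.31, 9.78 and 10.32 (difference -2.76 ± 0.53, adjusted p = 0.0347, and 0.0579 without 9-week replicate 2). In the TGF-beta and BMP pathway 1 of 20 was higher, the ligand Bmp2, with 11.93 and 10.52 against 6.73, 8.22, 6.90 and 8.11 (difference 3.73 ± 0.59, adjusted p = 0.0163). In the IGF axis 1 of 13 was higher, the ligand Igf2, with 5.59 and 8.44 against 0.94 to 3.84 (difference 4.0 ± 0.80, adjusted p = 0.038). With values below the array median raised to it Igf2 had 2.12 and did not pass (0.0901).

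Of 8 hormone-sensing genes kept, 4 were called lower, 5 were without overlap on the lower side (11.6% of all genes were), and the median difference was -2.55. Prom1, a membrane protein of hormone-sensing luminal cells, had 5.88 and 8.46 on the pregnant arrays, against 12.54, 11.18, 12.34 and 10.16 on the virgin arrays (difference -4.38 ± 0.72, adjusted p = 0.0178). Pgr, the progesterone receptor, had 6.42 and 8.94 against 11.79, 12.15, 11.64 and 10.54 (difference -3.85 ± 0.81, adjusted p = 0.0485). The day-10 value was the lower one for both genes, and no pregnant value reached a virgin one.

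Foxa1, a pioneer factor of oestrogen receptor action, had 8.22 and 9.21 against 10.81 to 11.62 (difference -2.48 ± 0.42, adjusted p = 0.0211). The transcriptional co-activator Cited1 had 4.14 and 7.55 against 11.15, 10.91, 9.49 and 9.32 (difference -4.37 ± 0.81, adjusted p = 0.03). Esr1, the oestrogen receptor, had 9.18 and 9.54 against 11.54, 12.09, 10.39 and 10.81, without overlap but not past the test (difference -1.85, adjusted p = 0.0766). It passed with the replicate number in the model (0.0104 and 0.0206). Among 9 mature luminal markers, a list that shares genes with the hormone-sensing one, 5 were lower, the fifth being the factor Tbx3 (difference -2.07 ± 0.42, adjusted p = 0.0405), and the median was -2.07. Cftr, a chloride channel in that list, had 4.96 and 5.88 against 2.0 to 3.25 (difference 2.71, adjusted p = 0.0749, and 0.0159 and 0.0339 with the replicate number). All 4 virgin values lay below the array median, and with low values raised to it the difference was 0.53 (adjusted p = 0.515). With the mean of its probe sets it was 1.08 (adjusted p = 0.31).

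Of the called genes Dmbt1 was the furthest below its virgin level. This secreted scavenger receptor glycoprotein of epithelia had 2.19 and 3.06 on the pregnant arrays, against 11.82, 9.53, 12.60 and 10.33 on the virgin arrays. The gap between the groups exceeded 6 log2 units, and the difference was -8.45 ± 0.99 (adjusted p = 0.00301). Ido1, which breaks down tryptophan, had 3.09 and 4.04 against 10.38, 9.03, 12.21 and 10.64 (difference -7.0 ± 0.76, adjusted p = 0.00181). Nrxn3, a neurexin adhesion protein, had 2.14 and 1.83 against 8.14 to 8.79 (difference -6.52 ± 0.67, adjusted p = 0.00181).

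Fibrinogen is the clotting protein made mainly in liver from 3 chains, and its β and γ chain genes are neighbours on chromosome 3. Fgb had 3.75 and 6.43 against 13.26, 12.75, 12.44 and 11.80 (difference -7.47 ± 0.62, adjusted p = 0.000852), the smallest p of all genes. Fgg, named after its values were seen, had 6.79 and 9.80 against 13.25, 13.03, 12.83 and 12.25 (difference -4.54 ± 0.42, adjusted p = 0.00152). Day 10 was the lower pregnant array for both. Other plasma protein genes lay on the lower side too, protein C (Proc, -5.18, adjusted p = 0.0226, and 0.0759 where low values were set to the median of the array) and the inter-alpha-trypsin inhibitor chain Itih2 (-5.52, adjusted p = 0.00796). The start region of Fgb is shown because it also holds the palindrome, in a gene that fell; that of Fgg held none.

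Fgb, chr3:83049814-83050113, minus strand: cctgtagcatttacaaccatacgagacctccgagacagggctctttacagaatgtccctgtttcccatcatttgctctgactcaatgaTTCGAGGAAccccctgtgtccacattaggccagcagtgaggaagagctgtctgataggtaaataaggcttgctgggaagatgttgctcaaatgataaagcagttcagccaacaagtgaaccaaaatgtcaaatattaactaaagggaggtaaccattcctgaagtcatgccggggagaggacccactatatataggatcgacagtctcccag

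The palindrome began 162 bases before the start of Fgb. Its presence in a gene that fell and in caseins that were high is a description of letters only.

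Keratins and junction genes of the luminal layer had 1 of 19 higher and 1 lower, with a median of -0.67. Without overlap were 11 on the lower side (11.6% of all genes) and 3 on the higher side (24.8%). The median was 0.20 in mature luminal cells and 0.23 in stem cells. Krt6a, a keratin that marks some luminal progenitors, had 3.72 and 7.0 against 12.08, 11.65, 12.04 and 10.51 (difference -6.21 ± 0.84, adjusted p = 0.00796). Krt4 had 5.74 and 7.37 against 13.22, 11.84, 13.30 and 10.42 (difference -5.64, adjusted p = 0.0645, and 0.000515 and 0.00496 with the replicate number). Krt23 went the other way, with 8.37 and 9.74 against 6.03 to 6.73 (difference 2.60 ± 0.48, adjusted p = 0.0309). Krt8 had 13.36 and 13.33 against 13.77 to 13.84 (difference -0.45, adjusted p = 0.349) and Krt18 had 12.86 and 13.14 against 13.47 to 14.06 (difference -0.75, adjusted p = 0.383, and 0.0372 and 0.341 with the replicate number).

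The remaining leaders on the lower side were Fam25c (-6.78), the uroplakin Upk3a (-5.92), the scaffold protein Gipc2 (-5.38), the calcium channel Trpc6 (-5.37), Sgsm1 (-5.22) and Ttc6 (-5.16), with adjusted p from 0.00181 for Ttc6 to 0.0363 for Upk3a. Ctse, the protease cathepsin E, had 4.71 and 5.23 against 9.55 to 10.14 (difference -4.82 ± 0.78, adjusted p = 0.0176), and 0.0758 with the mean of its probe sets. Ptn, the growth factor pleiotrophin, had 10.54 and 12.17 against 13.29 to 13.73 (difference -2.16 ± 0.24, adjusted p = 0.00209). Fgfr2, a fibroblast growth factor receptor, had 7.19 and 9.88 against 12.50, 12.45, 12.11 and 11.45 (difference -3.59 ± 0.45, adjusted p = 0.00465). Ptn and Fgfr2 were named after their values were seen.

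Across the 75 lower genes the differences ran from -0.80 to -8.45 with a median of -3.33. The day-10 value was further from the virgin mean in 70 of them and the day-16 value in 5. In 12 of them both pregnant values lay below the array median.

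**Figure D2:**
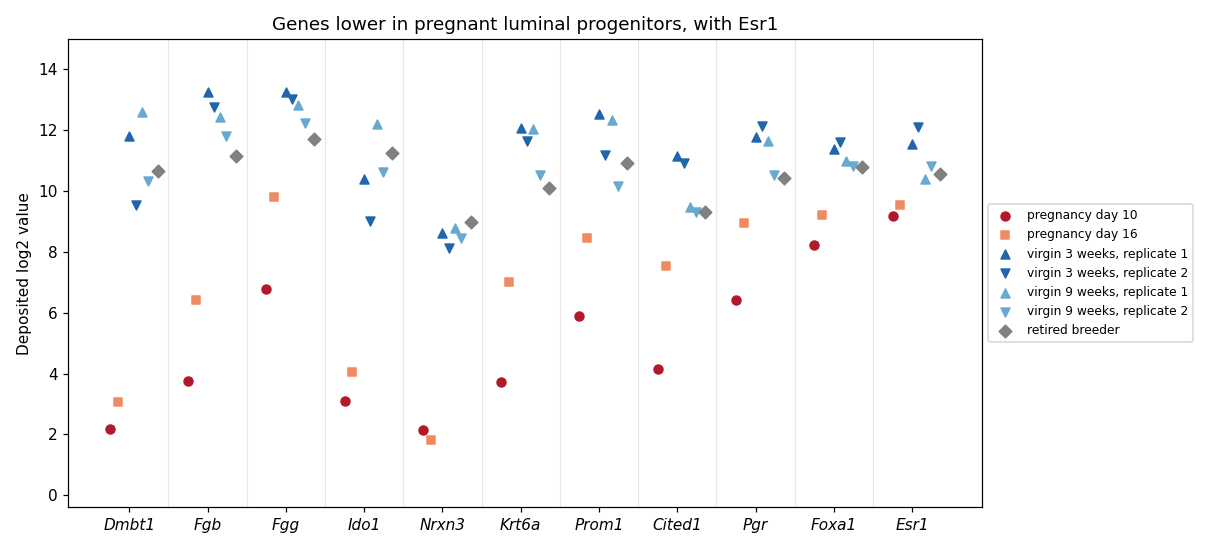
Deposited log2 values (y axis) of 11 genes (x axis) on each luminal progenitor array, with 1 point per array; the 2 pregnant arrays are left, the 4 virgin arrays in the middle and the retired breeder right. Both pregnant points lie below all virgin points in each gene, and day 10 is the lower one except for Nrxn3.

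Carry-over of other cells was examined on the same arrays. In bulk samples such as these, fewer cells of a type and less RNA per cell cannot be told apart. The mean of 16 fibroblast and stromal markers was 9.98 and 10.30 on the pregnant arrays, against 7.22 and 8.81 on the 3-week and 6.88 and 7.03 on the 9-week virgin arrays. All 16 had a positive difference, 12 did not overlap (24.8% of all genes did not on the higher side), 1 was called, and the median was 2.84. The same markers had a median difference of -1.83 in mature luminal cells and -0.35 in stem cells. The pregnant luminal progenitor arrays therefore held more stromal signal than the other preparations of pregnancy, with 4.39 to 6.58 in mature luminal and 7.43 to 8.78 in stem cells of pregnancy.

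Cd248, a stromal surface protein, was the called member, with 9.04 and 7.55 against 2.57, 5.95, 2.21 and 3.61 (difference 4.71 ± 0.96, adjusted p = 0.0407). The platelet-derived growth factor receptor Pdgfra had 9.30 and 9.93 against 5.84 to 8.18 (difference 2.86, adjusted p = 0.105). Thy1, Mmp2 and Postn had differences of 3.71, 3.77 and 2.81 (adjusted p = 0.081, 0.0947 and 0.0897). With unnumbered arrays midway these 4 passed with adjusted p from 0.00497 to 0.0173, and as number 2 Postn (0.0578) did not. The fibrillar collagens Col1a1 (11.14 and 11.61 against 7.43 to 11.36, difference 1.72, adjusted p = 0.338) and Col3a1 (12.58 and 12.89 against 8.49 to 12.43, difference 2.56, adjusted p = 0.253) did not pass.

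Among 24 collagen and matrix genes 2 were called higher, Col6a2 (10.54 and 10.86 against 6.47 to 9.05, difference 3.44 ± 0.63, adjusted p = 0.0279) and Col15a1 (8.87 and 9.72 against 4.77 to 7.64, difference 2.91 ± 0.61, adjusted p = 0.0486, and 0.0706 without 9-week replicate 2). Their median was 1.71, and 15 did not overlap on the higher side (24.8% of all genes did not). Matrix proteases and their inhibitors had 0 of 13 called by limma (2 at an unadjusted p under 0.05, median 0.37).

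Basal and myoepithelial markers had means of 8.46 and 9.88 on the pregnant arrays, against 7.39, 7.08, 7.12 and 6.54 on the virgin arrays. Pregnant stem cell arrays, which hold the basal layer, had 10.94 to 11.55. Of 22 markers 14 did not overlap on the higher side (24.8% of all genes did not), 1 was called, and the median was 2.34. All 22 were higher on the day-16 than on the day-10 array, whereas the milk proteins had the opposite order.

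Acta2, smooth muscle actin, was the called one, with 12.81 and 13.17 against 10.50, 10.16, 10.30 and 9.38 (difference 2.90 ± 0.57, adjusted p = 0.037, and 0.0581 without 9-week replicate 2). The contractile proteins Cnn1, Tagln and Actg2 had differences of 4.67, 2.85 and 3.62 (adjusted p = 0.0593, 0.0593 and 0.0642), and passed with the replicate number in both codings (0.00162 to 0.0328). The basal keratin Krt14 had 11.42 and 12.67 against 9.24 to 11.08 (difference 1.89, adjusted p = 0.137, and 0.0294 and 0.0403 with the replicate number). Krt5 overlapped, with 8.38 and 10.53 against 6.01 to 9.16 (difference 2.04, adjusted p = 0.362).

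Leukocyte markers had means of 8.47 and 8.17, against 4.37, 6.61, 4.80 and 6.64. Of 14 kept, 0 were called by limma, 6 had an unadjusted p under 0.05 and the median was 3.21. On the higher side 12 did not overlap (24.8% of all genes did not). The T cell gene Cd3g had 7.45 and 6.45 against 1.68 to 3.73 (difference 4.27, adjusted p = 0.0525, and 0.00188 and 0.0115 with the replicate number). Endothelial markers had 0 of 12 called by limma (4 unadjusted, median 0.82, array means of 7.04 and 7.89 against 5.42 to 7.01), and red cell markers 0 of 3 (0 unadjusted, median -0.0025).

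**Figure D3:**
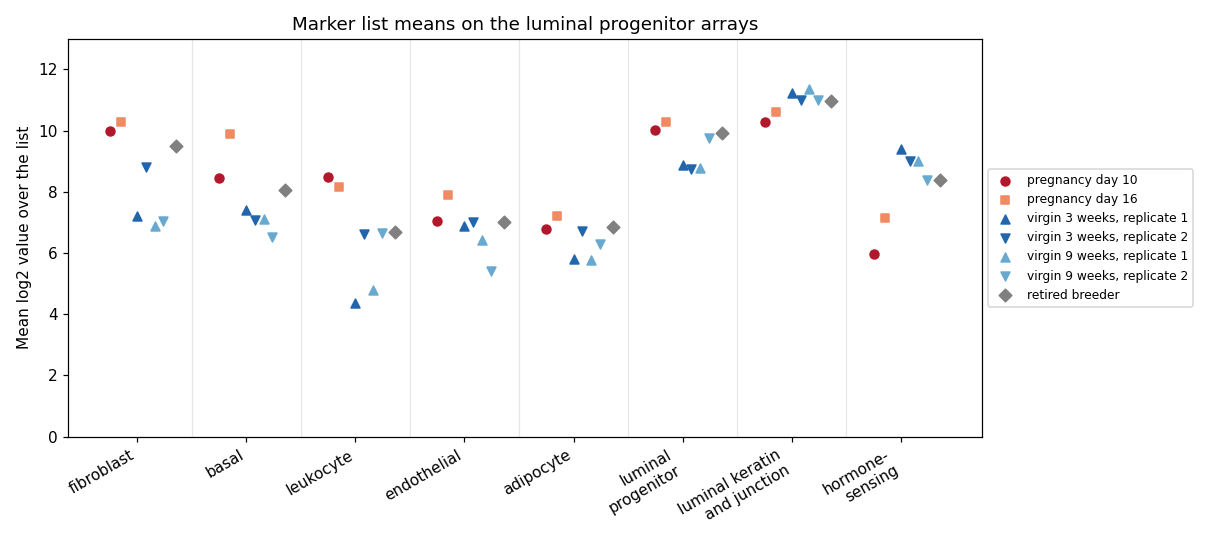
Mean log2 value (y axis) of 8 marker lists (x axis) on each luminal progenitor array, with 1 point per array; the 2 pregnant arrays are left, the 4 virgin arrays in the middle and the retired breeder right. Fibroblast, basal and leukocyte means are higher on both pregnant arrays than on any virgin array, and the hormone-sensing and luminal keratin means are lower.

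How far the calls moved with these markers was measured by adding a list mean to the model. With the fibroblast mean 0 genes were called by limma, with 371 at an unadjusted p under 0.05. With the basal mean 0 were called, with 1086 at an unadjusted p under 0.05, and with the leukocyte mean, a setting added after seeing the data, 24. These means did not overlap between pregnant and virgin luminal progenitors, and the model took each marker term from the differences between the 2 arrays of the same group. Of 53 called genes named here, 29 higher ones kept a positive difference and 24 lower ones a negative one under each of the 3 terms. The median of the 29 was 3.47, 4.05 and 3.91 with the fibroblast, basal and leukocyte mean, against 5.28 without. That of the 24 was -5.13, -4.06 and -4.95, against -5.17 without. Among the smallest were Fabp4, at 0.79 with the fibroblast mean, and Acta2, at 1.0 with the basal mean. Acta2 is itself in the basal list and Cd248 in the fibroblast list, so the shift of each with that mean is partly built in. Genes differed in how far they moved. Wap had 7.64, 8.05 and 6.30 in the 3 fits (6.71 without a term), and Fgb -8.11, -6.90 and -7.73 (-7.47 without). With the fibroblast mean Lao1 had 3.43 (8.0 without), Olah 3.72 (7.52 without), Thrsp 2.88 (7.19 without) and Acbd7 1.82 (6.19 without). With the basal mean Upk3a had -2.25, against -5.92 without. Among genes not called, Lpl had 0.12 and Cd36 0.69 with the fibroblast mean.

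**Figure D4:**
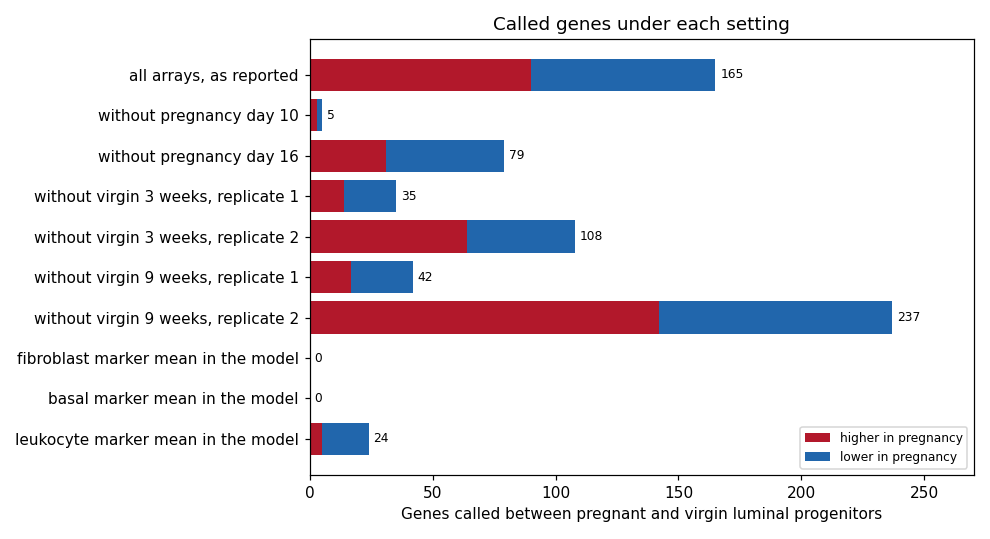
Number of genes called between pregnant and virgin luminal progenitors (x axis) under each setting (y axis), split into higher and lower in pregnancy. The count is 165 with all arrays, 5 without the day-10 array and 0 with the fibroblast or basal marker mean in the model.

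Levels in the other cell types are given as a description, since the genes were chosen for their luminal progenitor values. Among the 90 higher genes the stem cell mean was at least 1 log2 unit above that of luminal progenitors for 5 in pregnancy and for 44 in virgins, against 2131 and 2199 of all 15378 genes. Their highest mean lay in luminal progenitors for 58 (64.4%) in pregnancy, against 38.4% of all genes, and for 6 (6.67%) in virgins, against 23.2%. In virgins it lay in stem cells for 47 (52.2%, against 31% of all genes). For 37 it lay in virgin mature luminal cells (41.1%, near the 45.8% of all genes). No fibroblast or leukocyte preparation was among the arrays.

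The pregnancy difference was then compared with the other 2 cell types, using the same stages (3 pregnant and 3 virgin mature luminal arrays, 3 pregnant and 4 virgin stem cell arrays). In mature luminal cells 88 genes (0.572%) were higher and 463 (3.01%) lower, and in stem cells 214 (1.39%) and 408 (2.65%). Of the 90 genes higher in luminal progenitors 27 were called higher in mature luminal cells, 24 in stem cells and 15 in both. Of the 75 lower genes 62 were called lower in mature luminal cells, 43 in stem cells and 40 in both.

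Wap, Fgb and Dmbt1 were called in the other cell types as well. Wap differed by 6.09 in mature luminal and 5.92 in stem cells (adjusted p = 0.00116 and 0.00168), and the milk protein medians were 5.63 and 4.63, beside 5.23 in luminal progenitors. Fgb differed by -7.63 and -6.84 (adjusted p = 0.00022 and 0.000767), and Dmbt1 by -10.12 and -7.56 (adjusted p = 0.00045 and 0.002). For neither Wap, Fgb nor Dmbt1 did the test of the difference between cell types pass (smallest adjusted p = 0.682). The stem cell preparations thus carried milk transcripts too, and which cells held them was not tested.

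The test of the difference between cell types found 60 genes with a higher pregnancy difference in luminal progenitors than in mature luminal cells (0.390%) and 0 with a lower one. In 52 of the 60 the difference was positive in luminal progenitors and negative in mature luminal cells, and 12 were also called within luminal progenitors. Some of the 60 hardly changed in luminal progenitors and were lower in pregnant mature luminal cells. Kcnma1 differed by 0.10 in luminal progenitors and -5.985 in mature luminal cells, and Ank by 0.18 and -3.68. The 60 are thus not all gains in luminal progenitors. Against stem cells 95 genes had a higher difference (0.618%) and 6 a lower one (0.0390%), and 90 of these 101 were positive in luminal progenitors and negative in stem cells. A total of 19 genes passed both tests.

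Matrix and stromal genes were among them. Col13a1, a transmembrane collagen, had 6.38 and 7.42 on the pregnant luminal progenitor arrays against 1.70, 2.13, 1.75 and 3.73 on the virgin ones (difference 4.57 ± 0.66, adjusted p = 0.00971). Its difference exceeded that in mature luminal cells by 6.47 and that in stem cells by 9.15 (adjusted p = 0.0384 and 0.00531). In stem cells Col13a1 was itself lower in pregnancy (difference -4.575, adjusted p = 0.00287). Epyc, a matrix proteoglycan, had 5.69 and 6.64 against 0.76 to 1.10 and exceeded by 6.08 and 6.05 (adjusted p = 0.0397 and 0.0308). For Col13a1 and Epyc all 4 virgin values lay below the array median. With low values raised to it their differences in luminal progenitors were 2.01 and 1.275 (adjusted p = 0.0211 and 0.0173), so their sizes are not secure. The galectin Lgals1 had 12.22 and 13.15 against 9.81 to 10.85 (difference 2.31 ± 0.28, adjusted p = 0.00382) and exceeded by 2.61 and 2.23 (adjusted p = 0.0384 and 0.0308). Clec2d, a lectin that is bound by a natural killer cell receptor, had 11.84 and 11.12 against 8.78 to 9.00 and exceeded by 2.99 and 2.83 (adjusted p = 0.0418 and 0.0323). These 4 genes were named after their values were seen.

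Fibronectin, Fn1, a matrix glycoprotein, had 9.36 and 9.99 against 6.79 to 8.38. Within luminal progenitors its difference of 2.15 did not pass (adjusted p = 0.0711, and 0.0128 and 0.029 with the replicate number), while the difference between cell types did (adjusted p = 0.0384 and 0.0121). A dimmer Fn1 probe set differed by -0.25, and the mean of both gave 0.95 (adjusted p = 0.519). Of the 24 matrix genes 5 passed against mature luminal cells and 3 against stem cells, all in the higher direction. Endothelial markers passed for 7 of 12 against stem cells, whose own endothelial median difference was -3.75. Esam, an endothelial junction protein, had a difference of 2.07 in luminal progenitors (adjusted p = 0.0878, and 0.0168 and 0.0512 with the replicate number) and -2.69 in stem cells (adjusted p = 0.0136). The fibroblast marker median difference was 2.84 in luminal progenitors, -1.83 in mature luminal cells and -0.35 in stem cells. Whether stromal signal lay behind the differences between cell types was not tested. With the fibroblast mean in the model 0 genes passed either test of cell types in limma, with 262 and 484 at an unadjusted p under 0.05.

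On the lower side, Fgg fell further in luminal progenitors than in stem cells (difference between cell types -2.99, adjusted p = 0.0404), as did Fgfr2 (-3.61, adjusted p = 0.0308), which differed by 0.02 in stem cells. Ptn fell less in luminal progenitors than in mature luminal cells (-2.16 and -4.0, difference between them 1.85, adjusted p = 0.0476). The virgin values of this probe set are near the end of the scale, and another Ptn probe set had a difference of -5.99 in luminal progenitors, so neither size is secure.

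The 60 calls against mature luminal cells became 0 without any one of the day-10, day-16 or 3-week replicate 1 luminal progenitor arrays, day-10 mature luminal replicate 1, or the single day-16 or 3-week mature luminal array (776 to 2062 at an unadjusted p under 0.05 in limma), 3 without 9-week luminal progenitor replicate 2, 12 without replicate 1 of that group, 14 without 9-week mature luminal replicate 1 and 106 without day-10 mature luminal replicate 2. The 101 against stem cells became 0 without the day-16 luminal progenitor array (1310 unadjusted), 28 without the day-10 one, 10 and 59 without 3-week luminal progenitor replicates 1 and 2, 35 and 18 without 9-week ones, 12 without day-10 stem replicate 1, 20 and 2 without 3-week stem replicates 1 and 2, and 30 and 16 without 9-week ones. With the replicate number they were 1019 or 485 against mature luminal and 587 or 458 against stem cells. On the single 3-week mature luminal array the Gapdh signal of the 3′ end exceeded that of the 5′ end by 5.16 log2 units. On the other mature luminal arrays of these stages that excess was 1.03 to 1.53. Whether RNA breakdown on that array lay behind the calls against mature luminal cells was not tested.

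**Figure D5:**
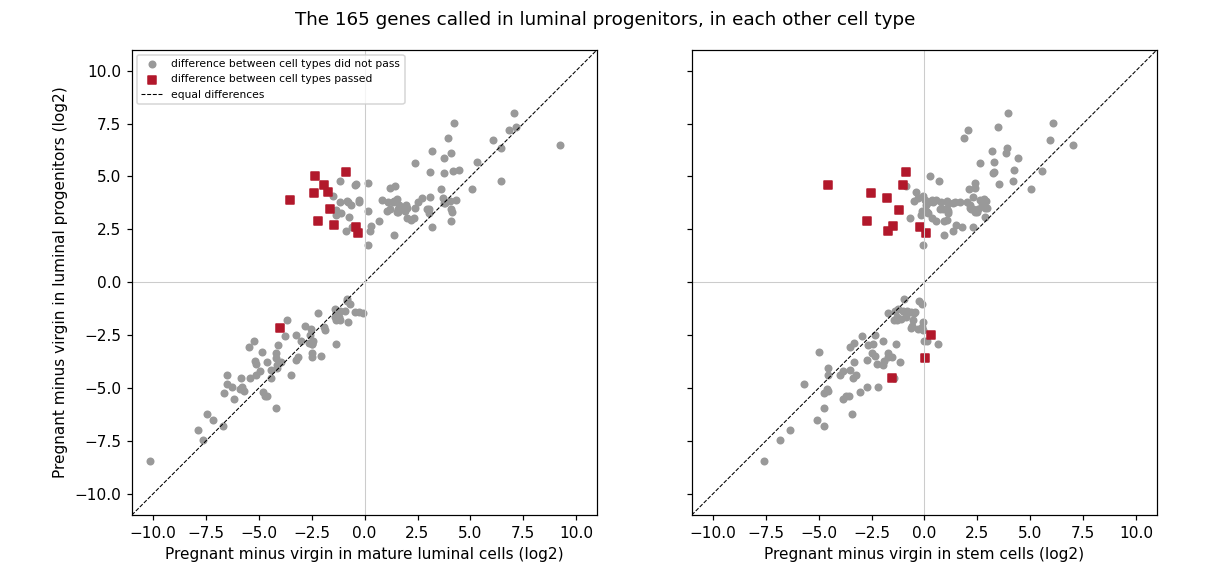
Pregnant minus virgin difference (log2) in luminal progenitors (y axis) against the same difference in mature luminal cells (left panel, x axis) and stem cells (right panel, x axis), for the 165 genes called in luminal progenitors. Points on the dashed line have equal differences. Red squares mark genes whose difference between cell types passed, 12 against mature luminal cells and 14 against stem cells, most of them on the higher side with a negative difference in the other cell type.

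The luminal progenitors of retired breeders, mice that had been through earlier pregnancies, were measured on 1 array. It has no replicate, its label gives no age, and it was not tested. Of the 90 higher genes 72 had a value there above all 4 virgin values, against 28.1% of all genes, and 34 were closer to the pregnant than to the virgin mean. Of the 75 lower genes 40 lay below all virgin values, against 13.8% of all genes, and 5 were closer to the pregnant mean. The median distance from the virgin mean was 1.68 for the higher and -0.56 for the lower genes (0.16 over all genes). Both sets were chosen with the same 4 virgin arrays, which favours such distances, so the values over all genes are no matched baseline.

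Csn1s1 had 12.40, Csn2 12.43 and Csn1s2a 12.22 on that array, nearer to their pregnant than to their virgin mean, while Wap had 5.34, Fabp3 6.09 and Olah 4.86. Dmbt1 had 10.67, Ido1 11.25 and Nrxn3 8.98, all inside the virgin range or above it, and Fgb had 11.15, just below its lowest virgin value. The fibroblast mean on the same array was 9.49 and the basal mean 8.07, both above every virgin luminal progenitor array and below both pregnant ones. The leukocyte mean was 6.69, beside a pregnant mean of 8.32 and a virgin mean of 5.60.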

How the data were processed

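The authors deposited log2 values for 45101 probe sets on 23 Affymetrix arrays; their scale was judged from the range, which ends at 14.28, and the labels name no software. mRNA was isolated with µMACS kits and turned into biotinylated cRNA, per the labels' protocols. Of the probe sets, 34945 listed 1 gene symbol in the platform annotation and covered 18193 genes. For a gene with several probe sets the one of highest mean value was taken, and genes above the 40th percentile of the array on at least 2 arrays were kept, 15378 in all. No detection calls were used. The number of arrays limits the precision.

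limma 3.58.1 in R 4.3.3 was fitted with 1 mean for each of 16 groups of stage and cell type and an eBayes trend (7 residual and 4.74 prior degrees of freedom). A group with a single array borrows its spread from the 7 with 2. Contrasts gave the day-10 and day-16 mean minus the 3-week and 9-week mean with equal weight per group, two-sided. An exact permutation test of 2 against 4 arrays cannot go below p = 0.133 two-sided. The members and 32 gene lists (451 of 492 genes kept) were chosen with earlier results of these data known. Genes were named by rule. It took up to 15 per direction with the largest called difference and no overlap. It added up to 4 per list with the smallest p, and 20 fixed genes, of which Prlr was not kept. The text names a part of the 154 that the rule gives. Other genes were chosen after their values were seen, and some are marked so where they appear. The rest of these were Csn1s2b, Glycam1, Muc15, Fasn, Cd36, Abcg2, Cftr, Ctse and Pdgfra.

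Replicate numbers were checked. Deviations from the group means correlated between the 7 groups of 2 at 0.303 to 0.682 in all 21 pairs, so the numbers were taken to pair arrays. Both pregnant luminal progenitor arrays are unnumbered; they correlated with virgin replicate 2 arrays at 0.906 and 0.923 on average and with replicate 1 arrays at 0.872 and 0.897. Of the 99 genes looked at for the text, 45 had another probe set above the filter, and in 41 all moved in the same direction; the exceptions were Fn1, Nrxn3, Stat5a and Dnmt1. Promoter sequences are RefSeq's (GRCm38.p6).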

Additional observations from a re-analysis of the deposited data

Results flagged for a closer look

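Among 131 values looked at on the 4 virgin luminal progenitor arrays, 12 had 1 array far from the other 3, which chance gives for about 1 in 20; in 11 it was 9-week replicate 2. That array was high for Csn2 (12.09, the others at most 4.56), Lalba (7.82, at most 3.48), Lao1 (4.33, at most 1.34), Rspo1 (6.73, at most 5.59), Sox10 (9.86, at most 8.26) and Kit (10.04, at most 8.22). It was low for Glycam1 (10.69, the others at least 13.58), Slc12a2 (13.08, at least 13.43) and Igf2 (0.94, at least 3.51). Its mean over the milk proteins was 9.97 (at most 6.90 on the others) and over the luminal progenitor markers 9.76 (at most 8.87). Gm12863 was at 0 on 3-week replicate 1, with 1.74 to 2.0 on the others.

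Some pregnancy differences differed between cell types by the test of the difference itself. Against mature luminal cells the excess in luminal progenitors was 1.85 for Ptn, 5.08 for Col6a2, 5.11 for Col15a1, 4.35 for Fn1, 2.61 for Lgals1, 6.47 for Col13a1, 6.08 for Epyc and 2.99 for Clec2d. Against stem cells it was -2.99 for Fgg, -3.61 for Fgfr2, 5.64 for Col15a1, 5.66 for Fn1, 4.76 for Esam, 4.12 for Fabp4, 5.76 for Igf2, 2.23 for Lgals1, 9.15 for Col13a1, 6.05 for Epyc and 2.83 for Clec2d. The higher ones rest on single arrays in the same way as the counts of such genes.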

How the results depend on the processing

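The 165 genes between pregnant and virgin luminal progenitors stayed within 1.5 times with no filter, quantile normalization (223, of which 63.2% were higher instead of 54.5%), a common 75th percentile, the mean of all probe sets and no trend. Raising values below the array median to it gave 434 (74.7% higher), and 324 against mature luminal and 269 against stem cells. With the replicate block and unnumbered arrays midway the 3 counts were 2075, 1019 and 587, and with them as number 2 they were 733, 485 and 458. Only 9-week virgins gave 24, 0 (limma, 789 with unadjusted p under 0.05) and 1, and only 3-week virgins 88 and 34, with the stem cell count within 1.5 times. The fibroblast mean gave 0, 0 and 0 by limma (371, 262 and 484 unadjusted), the basal mean 0, 0 and 12 (1086 and 858 unadjusted for the zeros), and the leukocyte mean 24 and 1. Only the 6 luminal progenitor arrays, pooled, gave 258, and only the virgin arrays titled replicate 2 gave 30; the leukocyte mean was chosen after seeing the data. A common 75th percentile left 3 and no trend 16 against mature luminal cells. Leaving out 1 array gave 5 to 237, 0 to 106 and 0 to 84. The cause of these changes was not tested, and leaving out 1 array raised some counts and lowered others.

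Of 53 called genes named in the text, 0 changed sign in any setting run. They kept the call in 53 with each replicate block and with quantile normalization, 39 without the trend (where lower genes in all numbered 43 instead of 75), 50 with low values raised, 46 with the mean of probe sets (lost were Lao1 0.0512, Tbx3 0.12, Sgsm1 0.0532, Ctse 0.0758, Acta2 0.0702, Fabp4 0.0965 and Igf2 0.134, as adjusted p), 17 with 9-week and 38 with 3-week virgins only. Genes not called changed sign as follows. Csn3 had -0.03 and Dnmt1 0.085 with 9-week virgins only, and Glycam1 -0.425 with 3-week ones. With the fibroblast mean Col1a1 had -1.17, Col3a1 -1.59 and Dnmt1 0.45, and with the basal mean Krt8 0.0888, Krt18 0.0504 and Dnmt1 0.81. Col1a1 and Col3a1 are themselves in the fibroblast list, so their shift with its mean is partly built in. With the leukocyte mean Kit had -0.0435 and Krt18 0.0656. Without day 10 Glycam1 had -0.31 and Dnmt1 0.0025, without 9-week replicate 2 Glycam1 -0.48 and Dnmt1 0.05 (over all arrays left out, Glycam1 ran from -0.48 to 1.1225 and Dnmt1 from -0.325 to 0.05), and with replicate 2 virgins only Stat5a had 0.09. Genes with values below the array median have the least certain sizes.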

Other observations

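Genes of cell division were examined because alveoli grow by proliferation in pregnancy. In luminal progenitors 0 of 29 cell cycle and DNA replication genes were called by limma (4 at an unadjusted p under 0.05). The median difference was 0.87 (0.23 over all genes). Of the 29, 8 did not overlap on the higher side, a share near the 24.8% of all genes. Mki67 had 9.20 and 9.40 on the pregnant arrays against 9.07, 9.50, 8.21 and 6.63 on the virgin arrays (difference 0.95, adjusted p = 0.531), so its 3-week values were at the level of pregnancy. Ccna2 had 9.93 and 9.88 against 7.53 to 9.61 (difference 1.47, adjusted p = 0.181). The cyclin-dependent kinase inhibitors had a median of 0.06 and 0 of 7 called (2 unadjusted).

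Interferon response genes had 1 of 17 lower, Ido1, and a median of -0.75. Usp18, which restrains interferon signalling, had 5.97 and 6.85 against 10.37, 9.27, 11.18 and 8.26 (difference -3.36, adjusted p = 0.0892, and 0.00848 and 0.0433 with the replicate number). Oxidative phosphorylation genes had 0 of 18 called (5 unadjusted) and a median of 0.53. On the higher side 9 were without overlap (24.8% of all genes were), and 17 of 18 were higher at day 10 than at day 16. Secretory pathway genes had 0 of 21 called (1 unadjusted, median 0.01), cytosolic ribosomal proteins 0 of 10 (1 unadjusted, median -0.21), immediate early genes 0 of 14 (0 unadjusted, median 0.07), the Notch pathway 0 of 16 (4 unadjusted, median 0.78) and ERBB ligands and receptors 0 of 11 (4 unadjusted, median -0.93). Genes of DNA and histone methylation had 0 of 15 called (1 unadjusted, median -0.22), and the maintenance methyltransferase Dnmt1 had 11.34 and 11.62 against 11.02 to 12.04 (difference -0.14, adjusted p = 0.892). In a list of 8 genes taken from earlier results of these data, Dmbt1, Ido1, Fgb, Ctse, Nrxn3, Krt6a, Krt4 and Alox12e, 6 were lower and 1 higher, which is no independent evidence of their direction.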
